A study of Mus musculus with 3 samples.

Results

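Ubb, Uba1 and Usp14, 3 genes of the ubiquitin system, were followed among 32285 genes in mouse embryonic stem cells whose translation was blocked. They were chosen by symbol, with earlier results of these data known, to stand for the supply, activation and recycling of free ubiquitin. Each symbol matched 1 identifier. The cells were of the established line E14 (129/Ola background), cultured in serum with leukemia inhibitory factor. From 24 h after seeding they were given 250 µg/mL cycloheximide, a drug that stops translation elongation, in 0.007% ethanol for 3 h or for 6 h. Control cells were given ethanol alone for 6 h, so the 3 h library has no ethanol control of its own duration. Each group was 1 library from cells that had been frozen, made with 10x Genomics 3' chemistry, which tags each captured transcript with a unique molecular identifier (UMI). With 1 library per group there is no replicate check and no test between conditions. Intervals are 95% exact intervals and cover counting error only.

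Ubiquitin is a small protein that is joined to other proteins, often as chains that send them to the proteasome. It is not made as a free protein: Ubb encodes a head-to-tail chain of ubiquitin, Rps27a encodes ubiquitin fused to a ribosomal protein, and proteases cut the units apart. The E1 enzyme Uba1 activates ubiquitin for most conjugation, and Usp14, bound to the proteasome, removes ubiquitin from substrates so that it can be used again. Ubb is also known as a stress-inducible gene.

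Barcodes with at least 15000 UMIs and 1 to 20% mitochondrial UMIs were kept as cells, which left 2187 barcodes from ethanol, 1739 from 3 h and 2554 from 6 h. They held 111447486, 106842407 and 140321458 UMIs, between 87.3% and 92.9% of the UMIs of their library. The median cell had 43160 UMIs in the control, 51726 after 3 h and 46200 after 6 h. The lower mitochondrial limit left out 62 control barcodes, 1 after 3 h and 8 after 6 h. No 2 libraries shared more than 3 cell barcodes. All 10 stem cell markers examined, among them Pou5f1 and Nanog, exceeded 10 CPM (UMIs of a gene per 1000000 UMIs of the kept cells) in each library. Summed markers stayed between 1.28 and 2.48 CPM for fibroblasts, with 3 of 6 at 0 in each library, between 8.94 and 12.4 CPM for endoderm and between 16.5 and 23.6 CPM for neuroectoderm, of which 1 of 3 markers exceeded 10 CPM after 3 h and after 6 h.

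Ubb (ENSMUSG00000019505) is on the plus strand of chromosome 11, 62551171 to 62553213 in GRCm38, and its longest coding transcript has 2 exons. Uba1 (ENSMUSG00000001924) is on the plus strand of chromosome X, 20658326 to 20683179, with 26 exons. The 2 members that were lower than the control at both times by CPM were Ubb and Uba1, and the 250 bases before their first RefSeq start are shown for that reason (RefSeq, GRCm38.p6, plus strand, chr11:62550921-62551170 and chrX:20658052-20658301). Capitals mark the matches to the motifs searched.
Ubb: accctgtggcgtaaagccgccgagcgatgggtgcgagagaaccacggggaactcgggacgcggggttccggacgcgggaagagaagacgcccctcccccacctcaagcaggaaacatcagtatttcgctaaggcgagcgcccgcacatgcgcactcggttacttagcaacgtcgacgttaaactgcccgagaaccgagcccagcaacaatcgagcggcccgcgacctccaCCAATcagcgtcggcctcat
Uba1: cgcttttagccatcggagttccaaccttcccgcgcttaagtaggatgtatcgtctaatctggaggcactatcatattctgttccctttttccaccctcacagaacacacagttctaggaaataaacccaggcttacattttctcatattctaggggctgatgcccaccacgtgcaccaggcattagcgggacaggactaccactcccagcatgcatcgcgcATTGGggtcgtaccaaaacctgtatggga
Both windows hold CCAAT, in Ubb on the plus strand 20 bases before the start and in Uba1 on the minus strand, where it reads ATTGG, 29 bases before the start. CCAAT occurs on either strand in 33.9% of the 32851 windows of this length in the table. Neither window holds the heat shock element pairs GAANNTTC or TTCNNGAA, found in 6.69% and 7.17% of windows, nor TGATGNAA (3.45%) or GGGCGG (32.7%). The second of the 2 RefSeq start windows of Ubb (chr11:62551481-62551730) holds GGGCGG on the plus strand, 169 bases before that start. It also holds TGATGNAA on the minus strand, 156 bases before that start. Uba1 has 3 RefSeq start windows. The second overlaps the first and holds the same ATTGG, 231 bases before its start, and the third holds no match. No match says only that these letters are not in these windows.

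Ubb was the most abundant of the 3 genes and was lower in each library exposed to cycloheximide, lowest after 6 h. It had 1848 CPM with ethanol alone (1840 to 1856), 1526 CPM after 3 h (1519 to 1534) and 1147 CPM after 6 h (1141 to 1153), from 205936, 163070 and 160961 UMIs. The 3 counting intervals did not overlap. Against the control, Ubb was 17.4% lower after 3 h, a log2 ratio of -0.28 (-0.29 to -0.27), and 37.9% lower after 6 h, a log2 ratio of -0.69 (-0.70 to -0.68). From 3 h to 6 h the log2 ratio was -0.41 (-0.42 to -0.40).

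The total of a library sets what 0 means in such ratios. Over the 7608 genes that averaged at least 10 CPM, the median log2 ratio was 0.11 after 3 h and 0.17 after 6 h, and scaling by TMM factors, which trims extreme genes, moved every ratio by -0.17 and -0.29. Relative to the median gene, the log2 ratio of Ubb was -0.39 after 3 h and -0.85 after 6 h. It lay at percentile 10.6 of all gene ratios after 3 h and at percentile 5.63 after 6 h, positions that no common scaling changes. Ubb was at least 1.5-fold lower after 6 h by CPM, as were 7.79% of the 7608 genes, and it was the only one of the 3 members past that fold. At 3 h none of the 3 was at least 1.5-fold lower, against 2.13% of all genes, and none was at least 1.5-fold higher at either time, against 13.9% after 3 h and 22.1% after 6 h. Between 3 h and 6 h none passed that fold, against 1.74% of genes higher and 2.52% lower.

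Counted as UMIs per cell and without scaling, Ubb in the 3 h library was near that of the control. The mean was 94.2 Ubb UMIs per control cell, 93.8 per cell after 3 h and 63.0 per cell after 6 h. Cells after 3 h also had the most UMIs in all, so the lower share of Ubb after 3 h came with a nearly equal number of Ubb UMIs per cell, a log2 ratio of -0.0060. After 6 h Ubb was lower both by CPM and per cell, with a log2 ratio of -0.58 per cell. UMIs per cell depend on the sequencing depth and capture of a library as well as on the RNA of its cells. These cannot be told apart here, so near-equal UMIs do not show equal Ubb RNA per cell.

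Uba1, the E1 enzyme, was lower by a smaller amount. It had 141 CPM with ethanol alone (139 to 143), 120 CPM after 3 h (118 to 122) and 111 CPM after 6 h (110 to 113). The control interval lay above both others. The log2 ratio was -0.23 (-0.27 to -0.20) after 3 h and -0.34 (-0.37 to -0.31) after 6 h, at percentiles 12.5 and 15.1 of all gene ratios. By mean UMIs per cell the 3 h ratio was 0.036, so its sign after 3 h depends on the scaling. The mean was 7.20 UMIs per control cell, 7.38 after 3 h and 6.12 after 6 h. Its Y-linked relative Uba1y had 1.61, 1.65 and 2.07 CPM.

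Usp14, the proteasome-bound protease that recycles ubiquitin, kept close to the median gene. The gene (ENSMUSG00000047879) is on the minus strand of chromosome 18, 9993066 to 10045119 in GRCm38, with 16 exons, and Thoc1 on the opposite strand overlaps it. It had 147 CPM with ethanol alone (145 to 149), 163 CPM after 3 h (160 to 165) and 170 CPM after 6 h (168 to 172). By CPM its log2 ratio was 0.15 (0.12 to 0.18) after 3 h and 0.21 (0.18 to 0.24) after 6 h, and under TMM factors these became -0.027 and -0.079. Its ratios lay at percentiles 54.1 and 53.4, that is 0.036 and 0.042 above the median gene on the log2 scale. The sign for Usp14 thus depended on the scaling.

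**Figure D1:**
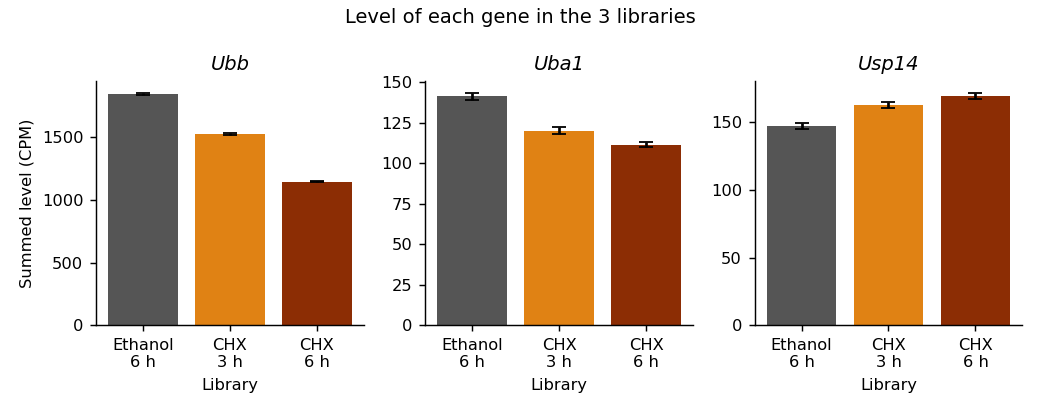
Level of Ubb, Uba1 and Usp14 in CPM (vertical axes start at 0 and differ between panels) in the ethanol library and the libraries of 3 h and 6 h cycloheximide (CHX). Bars are single libraries and error bars are 95% exact Poisson intervals for counting error only. Ubb goes from 1848 to 1526 to 1147 CPM and Uba1 from 141 to 120 to 111 CPM, while Usp14 goes from 147 to 163 to 170 CPM.

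The transcripts of Ubb are hard to tell from those of other genes at the end that 3' chemistry reads. In the longest coding transcript of GENCODE M21, 86.5% of the 50-base windows in the last 300 bases also occur in transcripts of other genes, such as the copies Gm1821 and Gm8797. For Rps27a that share was 86.9%, whereas it was 12.4% for Uba1 and 0% for Usp14. One copy, Gm8797 (ENSMUSG00000103034, chromosome 3, 5750806 to 5751295), had counts of its own. GENCODE M21 lists it as protein coding and RefSeq as a pseudogene. It aligns to 231 coding bases of Ubb and is identical at 225 of them. A stretch of 60 bases shows how close they are, with the 4 differing bases in capitals (GRCm38, plus strand, chr11:62552855-62552914 for Ubb and chr3:5750929-5750988 for Gm8797).
Ubb: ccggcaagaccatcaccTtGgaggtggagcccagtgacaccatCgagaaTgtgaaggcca
Gm8797: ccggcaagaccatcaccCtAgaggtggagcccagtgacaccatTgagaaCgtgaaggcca
Gm8797 had 170 CPM with ethanol alone, 178 CPM after 3 h and 170 CPM after 6 h, so the UMIs assigned to it did not share the lower level of Ubb. In its last 300 bases, 92.0% of the 50-base windows also occur in transcripts of other genes. With its UMIs added to those of Ubb (a setting added once the data were known), the log2 ratio of Ubb was -0.24 after 3 h and -0.61 after 6 h. How shared reads were assigned is not given in the sources used here, so the levels of Ubb, Rps27a and Gm8797 are uncertain in that respect.

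Rps27a, which encodes ubiquitin fused to a protein of the small ribosomal subunit, differed less from the control than Ubb did. UMIs at the 3' end count transcripts rather than fragments, so its level is not divided by length. It had 5413 CPM with ethanol alone, 5007 CPM after 3 h and 5220 CPM after 6 h, log2 ratios of -0.11 and -0.052. Clhc1 overlaps Rps27a on the opposite strand. Translated GENCODE transcripts held 4 ubiquitin units of 76 residues in Ubb and 1 in Rps27a, and no unit differed from the first unit of Ubb. Multiplied by its units, the level of Ubb was 7391 with ethanol alone, 6105 after 3 h and 4588 after 6 h, on the CPM scale. Ubb thus encoded more units than Rps27a in the control and after 3 h, and fewer after 6 h. With the UMIs of Gm8797 counted as Ubb the 6 h value was 5270.2, above the 5220 of Rps27a, so the 6 h order depends on that assignment. These values describe transcripts, and ubiquitin protein was not measured.

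Among E1 enzymes, both that activate ubiquitin were lower than the control by CPM and the 5 others described here were not. Uba6, the second ubiquitin E1, had 39.2, 34.4 and 31.4 CPM in the control, after 3 h and after 6 h. Its log2 ratios of -0.19 and -0.32 were near those of Uba1. The SUMO E1 subunits Uba2 and Sae1 had log2 ratios of 0.14 and 0.16 after 3 h and of 0.21 and 0.29 after 6 h, of which Sae1 after 6 h alone stayed above 0 under TMM factors (0.0061). The NEDD8 E1 subunits Uba3 and Nae1 had 0.10 and 0.0067 after 3 h and 0.054 and 0.15 after 6 h, and all 4 values were negative under TMM factors. Mocs3, which acts in tRNA thiolation, had 0.76 and 0.27 from 8.25 CPM in the control. Uba7 and Atg7 were below the floor of 10 CPM.

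Of the 7 E1 genes above the floor, 1 was at least 1.5-fold higher after 3 h (Mocs3) and none after 6 h, against 13.9% and 22.1% of all genes. None was lower by that fold, against 2.13% and 7.79% of all genes, shares at which a list of 7 may well hold none. Mocs3 passed the floor through the 3 h library, in which it had 14.0 CPM, and was below 10 CPM in both others. The list median was 0.10 after 3 h and 0.15 after 6 h, close to the 0.11 and 0.17 of all genes. Under TMM factors, 2 of the 7 were at least 1.5-fold lower after 6 h, the ubiquitin E1 genes Uba1 (-0.63) and Uba6 (-0.61), against 16.9% of all genes under that scaling.

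Among proteases that recycle ubiquitin or process its precursors, none of the 7 genes above the floor was 1.5-fold higher (all genes 13.9% after 3 h and 22.1% after 6 h) or lower (2.13% and 7.79%) at either time. The other proteasome-bound enzymes, Uchl5 and Psmd14, had log2 ratios of 0.19 and 0.16 after 3 h and of 0.39 and 0.31 after 6 h, on the same side of the control as Usp14 by CPM. Usp5, which takes apart unanchored ubiquitin chains, had -0.051 and -0.19. Uchl3 and Uchl1, which trim small adducts from ubiquitin, had -0.042 and -0.14 after 3 h and -0.012 and -0.012 after 6 h. Otulin, specific for linear chains, had -0.047 and -0.050. The list median was -0.042 after 3 h and -0.012 after 6 h, but 0.15 and 0.21 for the 5 genes above 50 CPM, so its side of the medians of all genes depends on the floor. Usp13 stayed below the floor, with 2.81 CPM in the control and 6.52 CPM after 6 h.

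Later steps of the pathway were described from lists taken by symbol alone. They keep their names here and in the closing section, though a symbol does not show that a gene is of that kind. By CPM, 22.1% of all genes were at least 1.5-fold higher after 6 h and 7.79% lower, and under TMM factors 11.6% were higher and 16.9% lower. Of the 29 genes with Usp symbols above the floor (58 in all), 1 was at least 1.5-fold higher after 6 h (Usp11, 0.67). None of the 29 was lower by that fold, and the median was 0.064. Under TMM factors none of the 29 was higher and 5 were lower. The 58 took in Usp6nl, Usp46os1 and Usp46os2 by symbol, all below the floor. Usp22 of the SAGA complex had 0.53, and the lowest were Usp8 (-0.50) and Usp9x (-0.49). Of the 29 E2 conjugating enzymes above the floor (38 in all), 2 were at least 1.5-fold higher and 1 lower after 6 h, with a median of 0.14, whereas under TMM factors 2 were higher and 3 lower. Ube2g2, which acts in degradation from the endoplasmic reticulum, had 13.0 CPM with ethanol alone, 31.9 CPM after 3 h and 49.1 CPM after 6 h, a log2 ratio of 1.92 after 6 h. Ube2h, the other one higher by that fold, had 7.53, 10.6 and 14.8 CPM, so it passed the floor through the libraries in which it was high. Ube2v2 had 0.48, Ube2t -0.36 and Ube2d1 -0.62. Of the 35 genes with proteasome subunit symbols above the floor (39 in all), 1 was at least 1.5-fold higher after 6 h (Psmd9, 0.74). Psmd9 was counted by its symbol, and whether it is part of the mature proteasome was not checked. None of the 35 was lower by that fold, and the median was 0.18. Under TMM factors none of the 35 was higher and 3 were lower. Psmc5 had 0.58, and the lowest were Psmd4 (-0.40), a ubiquitin receptor, and Psmd2 (-0.34), a subunit that binds Usp14.

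Cullin ligases and heat shock genes complete the lists. Of 13 cullin ligase genes, 1 was at least 1.5-fold lower after 6 h (Cul1, -0.59), a share near the 7.79% of all genes. None of the 13 was higher by that fold, against 22.1% of all genes, and the median was -0.0045. Under TMM factors 3 of the 13 were lower after 6 h, not far from the 16.9% of all genes under that scaling. Of 15 heat shock genes above the floor, 3 were at least 1.5-fold lower after 3 h (all genes 2.13%) and 6 after 6 h (7.79%). The medians were -0.16 and -0.36. None of the 15 was higher by that fold, against 13.9% of all genes after 3 h and 22.1% after 6 h. Under TMM factors 9 of the 15 were lower after 6 h, against 16.9% of all genes. Hspa8, the constitutive cytosolic chaperone, had -1.33 and -2.57, Dnajb1 -0.93 and -1.30, Hsph1 had -0.61 and -0.86 and Hsp90aa1 0.014 and -0.13. These counts leave out Bag3, Hspa1a and Hspa1b, which averaged below 10 CPM. Bag3 had 6.91, 10.2 and 11.6 CPM in the control, after 3 h and after 6 h, log2 ratios of 0.56 and 0.75. It was thus at least 1.5-fold higher after 6 h. Hspa1a had -0.49 and 0.54. Hspa1b had -1.38 and -0.77, lower by that fold at both times, and stayed under 2 CPM in each library.

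**Figure D2:**
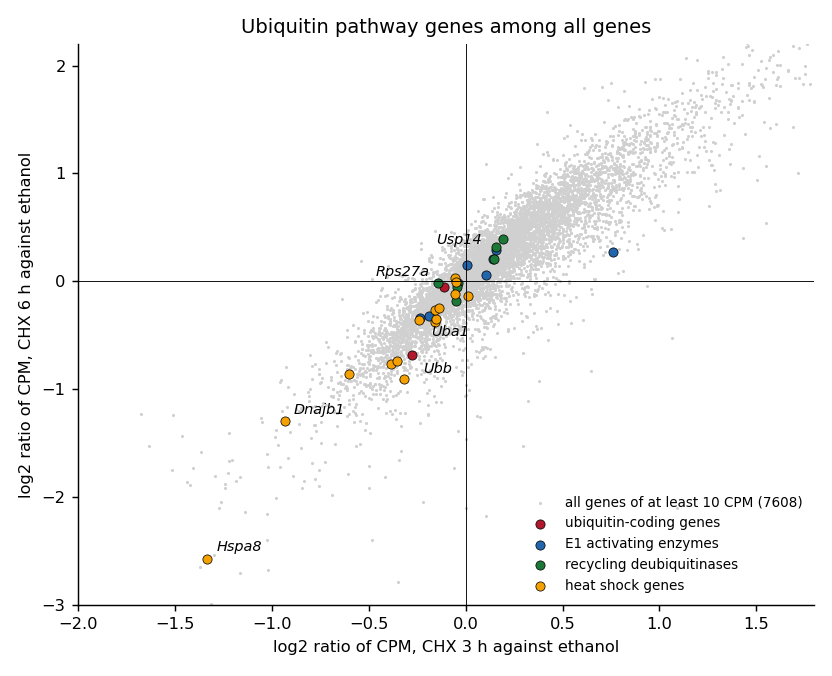
Each point is a gene: its log2 ratio of CPM after 3 h against ethanol (horizontal) and after 6 h against ethanol (vertical), which share the control library. Grey points are genes of at least 10 CPM, of which 84 lie outside the axes, and coloured points belong to 4 lists. Ubb (-0.28, -0.69) and Uba1 (-0.23, -0.34) lie at the lower left, and Usp14 (0.15, 0.21) lies near the median gene.

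Genes with the most similar pair of ratios were sought among 2938 genes of at least 50 CPM, by the distance between their log2 ratios after 3 h and 6 h over the 3 libraries. The 5 nearest to Ubb were Etv4, Ddx21, Gcn1, Eno1 and Cad, at distances of 0.019 to 0.030, and 27 genes lay within 0.1. For Uba1 they were Sh3bgrl3, Zdbf2, Gsr, Stip1 and Htatsf1, with 145 genes within 0.1. For Usp14 the 5 nearest included Uba2, Nelfa, Ppp1r2 and Gnl2, with 289 genes within 0.1. The pattern of Ubb was thus the least common of the 3, and that of Usp14 the most common.

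Single cells were compared after each was thinned to 15000 UMIs, which left out no kept cell. Ubb was found in nearly every cell. Control cells had a lowest value of 4, a median of 27 and a highest value of 88 UMIs of Ubb. Cells after 3 h had 3, 22 and 49, and cells after 6 h had 0, 17 and 50. No Ubb UMI was seen in 0 of 2187 control cells, which allows a share of up to 0.137%, in 0 of 1739 cells after 3 h (up to 0.173%) and in 2 of 2554 cells after 6 h, 0.0783% (exact binomial interval 0.00948 to 0.283). The distributions overlapped, yet the 90th percentile after 6 h, 26 UMIs, was below the control median.

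The spread of Ubb between cells was wider after 6 h relative to its mean. Excess squared coefficient of variation (CV), (variance − mean) / mean squared, which removes the part that counting gives, was 0.0542 in the control, 0.0535 after 3 h and 0.101 after 6 h. The median over genes of at least 0.2 UMIs per cell was 0.0789, 0.0800 and 0.0843. Ubb was thus below that median in the control and after 3 h and above it after 6 h, though at a depth of 30000 UMIs the 6 h value (0.0871) was just below the median of 0.0877. At that depth the control had 0.0458 and the 3 h library 0.0400, so the order of the 6 h library above both others was unchanged. Unthinned, the values were 0.253, 0.348 and 0.399.

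Uba1 and Usp14 were too sparse at this depth for a fine reading of cells. No Uba1 UMI was seen in 13.5% of control cells (12.1 to 15.0), 18.3% after 3 h (16.6 to 20.2) and 19.6% after 6 h (18.1 to 21.2). Counting alone at the same mean would give 12.4%, 16.6% and 19.3%. No Usp14 UMI was seen in 11.2% of control cells (9.95 to 12.6), 10.2% after 3 h (8.85 to 11.8) and 9.48% after 6 h (8.37 to 10.7), where counting alone would give 10.6%, 8.36% and 7.93%. Unthinned, the shares were 1.10%, 1.73% and 1.84% for Uba1 and 0.914%, 0.403% and 0.509% for Usp14. No cell type that should lack these genes was present to give a background. In barcodes of 10 to 100 UMIs, a measure of free RNA, Ubb had 1082, 772 and 693 CPM, Uba1 135, 109 and 101 CPM and Usp14 135, 162 and 186 CPM. Free RNA thus moved in the same direction as the cells for each gene, with Ubb lower in it than in cells, and its part in the results was not tested beyond the subtraction of 10% given in the closing section.

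**Figure D3:**
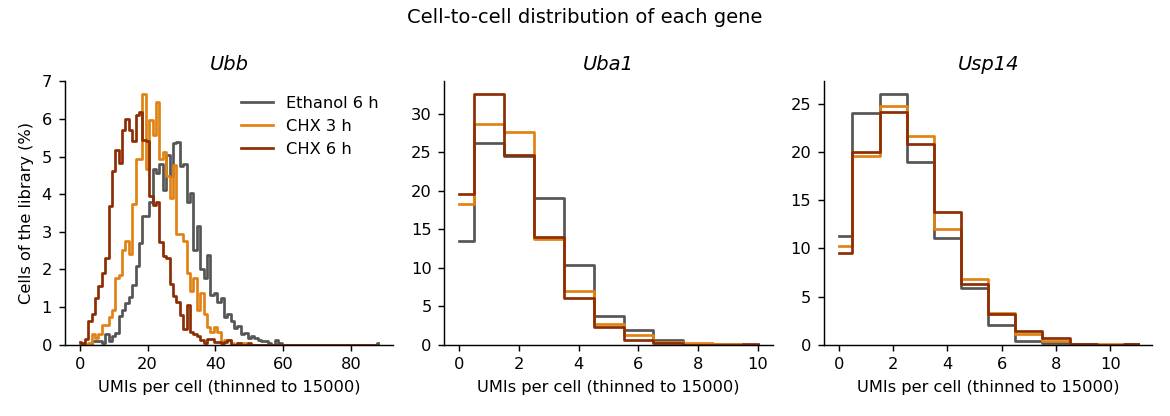
Share of cells (vertical) by UMIs of each gene per cell after thinning to 15000 UMIs (horizontal), 1 line per library. The Ubb lines are displaced from a median of 27 in the control to 22 after 3 h and 17 after 6 h, while the lines of Usp14 nearly coincide.

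Across cells the 3 genes hardly moved together. Spearman's rho between Ubb and Usp14 was -0.047 in 2187 control cells, -0.078 in 1739 cells after 3 h and -0.048 in 2554 cells after 6 h. Between Ubb and Uba1 it was -0.018, -0.046 and -0.033, and between Uba1 and Usp14 it was 0.070, 0.033 and 0.031. Cells of a library share its preparation, its thinned depth and its free RNA, so these are descriptions. Among 3503 genes of at least 0.5 UMIs per thinned cell in each library, the 5 with the highest mean rho with Ubb were Gm8797 (0.24), Rpl3 (0.22), Rpl8 (0.22), Rpl11 (0.21) and Rpl14 (0.21). Rpl3, Rpl8, Rpl11 and Rpl14 encode proteins of the large ribosomal subunit. The rho of Gm8797 was 0.17 in the control, 0.22 after 3 h and 0.35 after 6 h. The median over all genes was -0.0077.

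By CPM, the difference in Ubb between libraries held in every quartile of cells by total UMIs, with quartiles cut within each library. When the cells of a library were split into 4 by total UMIs, Ubb ranged from 1761 to 1991 CPM in control quartiles, from 1378 to 1596 CPM after 3 h and from 991 to 1220 CPM after 6 h. These ranges did not overlap. In each library the quartile with the fewest UMIs had the lowest Ubb level. In the control it was nearly equal to the quartile with the most UMIs (1761 against 1772 CPM). By mean UMIs per cell, the quartile with the most UMIs had the other order at 3 h, 167 Ubb UMIs against 152 in the control.

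Inside each library, Ubb was lower where the mitochondrial share was higher. From the quartile of lowest to that of highest mitochondrial share, Ubb went from 1990 to 1717 CPM in the control, from 1629 to 1408 CPM after 3 h and from 1208 to 1065 CPM after 6 h. The order of the libraries by CPM was the same in each quartile. Uba1 and Usp14 differed less between such quartiles, with Uba1 between 133 and 145 CPM and Usp14 between 145 and 152 CPM in the control.

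**Figure D4:**
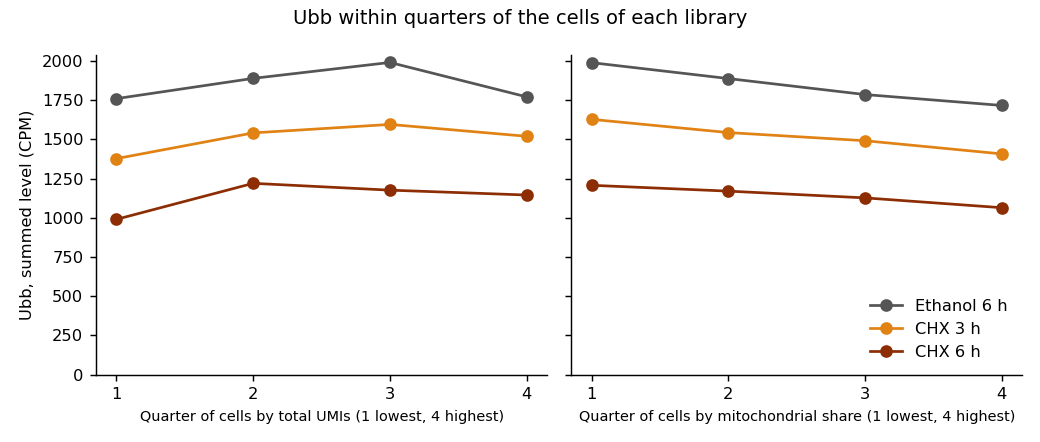
Ubb in CPM (vertical, from 0) in quartiles of the cells of each library, ordered by total UMIs (left) or by mitochondrial share of UMIs (right). The 3 libraries keep apart in every quartile, and Ubb is lower where the mitochondrial share is higher, from 1990 to 1717 CPM in the control.

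Barcodes at the edge of the limits differed from the kept cells. The 62 control barcodes of at least 15000 UMIs but under 1% mitochondrial UMIs had 2999 CPM of Ubb, 62.6 CPM of Uba1 and 74.2 CPM of Usp14. They were thus higher in Ubb and lower in both other genes than the control cells kept. With such barcodes included, the log2 ratio of Ubb was -0.32 after 3 h and -0.74 after 6 h. Just under the UMI limit, from 10000 to 15000 UMIs, Ubb had 1261 CPM in 46 control barcodes, 752 CPM in 53 barcodes after 3 h and 812 CPM in 50 barcodes after 6 h. Just above it, from 15000 to 20000 UMIs, it had 1525, 1260 and 821 CPM.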

How the data were processed

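The authors deposited whole-number UMI counts for each gene in each barcode, and per the file headers Cell Ranger 4 wrote them. The submitters' processing notes name Cell Ranger 4.0.0 and mm10, and the annotation is not given in the sources used here. Gene positions are from GENCODE M21 on GRCm38, the same assembly. The matrices listed all 6794880 barcodes, so cells were chosen here by UMI count and mitochondrial share. Doublets were not removed, and no doublet caller was run. Counts were summed over kept cells and scaled to CPM. Ratios had a prior of 0.5 counts, and lists a floor of 10 CPM on the mean of the libraries. Intervals are exact Poisson intervals for levels, exact conditional binomial intervals for ratios and Clopper-Pearson intervals for shares, and where no cell counted the limit is the share that 3 cells would be. UMI totals of 106842407 to 140321458 per library keep counting error of abundant genes small, which says nothing of variation between cultures.

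The members and lists were chosen with earlier results of these data known. Named genes were the members, every gene of the ubiquitin-coding, E1 and recycling lists, the 2 highest and 2 lowest ratios at 6 h (mean of at least 20 CPM) of each list taken by symbol, 4 heat shock genes, and the 5 most similar genes. Some genes of these lists are not reported here. Genes named because a list had 5 or fewer past the fold, the copy of Ubb, and Uba1y were added after values were seen. So were Bag3, Hspa1a, Usp6nl, Usp46os1 and Usp46os2. Cells were thinned without replacement. The scripts recovered known folds in Poisson counts simulated from the mean profile of these libraries. That checks the arithmetic only, as the simulation held no variation between cells, shared reads, free RNA or library effects. Scaling, cell limits, free RNA, priors, floors and thinning depths were varied. Python 3.11.15, numpy 2.4.6, scipy 1.17.1, pandas 2.3.3, matplotlib 3.10.9, R 4.3.3 and edgeR 4.0.16 (TMM factors only) were used.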

Additional observations from a re-analysis of the deposited data

How the results depend on the processing

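In the order Ubb, Uba1 and Usp14, TMM factors gave log2 ratios of -0.45, -0.41 and -0.027 after 3 h, of -0.97, -0.63 and -0.079 after 6 h, and of -0.52, -0.22 and -0.051 after 6 h against 3 h. Mean UMIs per cell gave -0.0060, 0.036 and 0.42 after 3 h, -0.58, -0.23 and 0.32 after 6 h, and -0.57, -0.27 and -0.10 after 6 h against 3 h. The sign of Usp14 and the 3 h sign of Uba1 thus depend on scaling, and Ubb after 6 h was past the 1.5-fold limit in each setting but mean UMIs per cell. Without a lower mitochondrial limit, values were -0.32, -0.19 and 0.19 after 3 h and -0.74, -0.30 and 0.25 after 6 h. For Ubb alone, values moved beyond counting error after 3 h and 6 h to -0.30 and -0.71 with cells weighted equally, to -0.30 and -0.72 without cells above 2 times the median UMIs, and after 6 h to -0.68 with a minimum of 30000 UMIs. Subtracting 10% free RNA gave Ubb -0.26 after 3 h and -0.43 after 6 h against 3 h, and Usp14 0.18 after 6 h. Adding Gm8797 UMIs, chosen after the data had been seen, gave Ubb -0.24, -0.61 and -0.37. A minimum of 2000 UMIs and a prior of 5 counts moved no member beyond counting error.

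List medians that changed sign under TMM factors were those of E1 enzymes (-0.072 after 3 h, -0.13 after 6 h), recycling proteases (-0.051 after 6 h against 3 h), ubiquitin-specific proteases (-0.15 after 3 h, -0.22 after 6 h, -0.11 after 6 h against 3 h), E2 enzymes (-0.13 after 3 h, -0.15 after 6 h, -0.033 after 6 h against 3 h), cullin ligases (-0.078 after 6 h against 3 h) and proteasome subunits (-0.11 after 3 h, -0.11 after 6 h, -0.0081 after 6 h against 3 h). The medians of recycling proteases after 3 h and 6 h were 0.15 and 0.21 with a floor of 50 CPM and 0.052 and 0.098 with none. With a floor of 50 CPM, the medians of ubiquitin-specific proteases were -0.034 after 3 h, -0.096 after 6 h and -0.0042 after 6 h against 3 h. With no floor, where the list took in Usp6nl and Usp46os2, the last of these was -0.0018. The median of E2 enzymes after 3 h was -0.0017 with a floor of 50 CPM. The E1 median after 6 h against 3 h was 0.10 with a floor of 50 CPM and -0.049 with that of 10 CPM. No paired analysis was possible because each group had 1 library.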
